A study of Homo sapiens with 20 samples.

Results

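The regions described here are BRG1 binding sites that were listed 30 min after progestin but not before it, and that lie close to the start of a gene. They are the peaks of the 30 min BRG1 list that share no base with a peak of the 0 min list and whose nearest edge is within 5 kb of a gene 5′ end. The 30 min list held 6180 peaks and the 0 min list 2288, 8468 in all. Of the 30 min peaks, 684 shared at least 1 base with a 0 min peak and 5496 did not, and 1906 of those 5496 (34.7%, 95% Wilson interval 33.4 to 35.9) lay within 5 kb of a 5′ end.

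T47D cells are a human breast cancer line of luminal type. Per the labels, which give no protocol for the first si-CBX3 library at 0 h, cells were held in charcoal-treated and then serum-free medium without phenol red before 10 nM R5020, a synthetic progestin, was added. BRG1 ChIP-seq was deposited as 1 library before hormone and 1 at 30 min, both from cells with no siRNA. RNA-seq was deposited at 0 h and 6 h of R5020 for cells given si-control or an siRNA against BRG1, CBX3 or FOXA1, 2 libraries for each of these 8 groups, and for cells with no siRNA, 1 library at each time.

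BRG1, encoded by SMARCA4, is the ATPase of SWI/SNF complexes, which slide and evict nucleosomes and so change access to promoters and enhancers. Progestin binds the progesterone receptor, which enters chromatin at hormone response elements and recruits remodellers and co-regulators, and genes near its sites can be induced or repressed. CBX3 (HP1 gamma) is a chromatin protein that reads methylated histone H3, FOXA1 is a pioneer factor of luminal cells, and H1.2, named in the series title, is a linker histone that compacts nucleosomes.

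The upstream sequences of 7 genes whose 5′ ends lie inside gained peaks are shown because the RNA results return to them. ACOT6, DUSP1 and FKBP5 rose after hormone, SERTAD4 fell, GADD45G rose less under si-BRG1, and VEZF1 and LRRC31 lie in the peaks with the highest scores. Each is the 250 bases upstream of the RefSeq gene start in GRCh38.p14, 5′ to 3′ on the gene's strand. The peaks are in hg19, so the windows were not placed against them. Capitals mark matches, on either strand, to a hormone response element core (ACANNNTGT), its half-site (TGTTCT, whose letters can overlap the core), a forkhead site (TGTTTAC), an AP-1 site (TGANTCA), a GC box (GGGCGG) or an E-box (CACGTG). The windows are chr14:73610695-73610944 (plus strand) for ACOT6, chr5:172771196-172771445 (minus strand) for DUSP1, chr6:35728584-35728833 (minus strand) for FKBP5, chr1:210232546-210232795 (plus strand) for SERTAD4, chr9:89604762-89605011 (plus strand) for GADD45G, chr17:57988255-57988504 (minus strand) for VEZF1 and chr3:169869936-169870185 (minus strand) for LRRC31. FKBP5 and SERTAD4 have 2 windows in the table, and the outermost is printed.
ACOT6: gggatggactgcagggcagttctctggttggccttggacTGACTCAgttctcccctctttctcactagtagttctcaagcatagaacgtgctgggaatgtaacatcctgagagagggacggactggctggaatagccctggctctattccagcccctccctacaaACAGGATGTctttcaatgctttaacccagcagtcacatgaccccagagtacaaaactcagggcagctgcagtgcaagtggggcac
DUSP1: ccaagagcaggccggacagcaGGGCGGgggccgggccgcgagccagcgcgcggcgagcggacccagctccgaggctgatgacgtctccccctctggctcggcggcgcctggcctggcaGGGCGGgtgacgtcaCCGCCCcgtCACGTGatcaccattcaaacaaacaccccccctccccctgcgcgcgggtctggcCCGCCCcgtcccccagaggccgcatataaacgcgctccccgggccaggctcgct
FKBP5: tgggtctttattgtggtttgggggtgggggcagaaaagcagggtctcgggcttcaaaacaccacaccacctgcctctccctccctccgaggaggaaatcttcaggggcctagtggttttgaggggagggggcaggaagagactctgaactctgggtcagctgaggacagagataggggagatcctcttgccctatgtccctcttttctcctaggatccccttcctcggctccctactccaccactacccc
SERTAD4: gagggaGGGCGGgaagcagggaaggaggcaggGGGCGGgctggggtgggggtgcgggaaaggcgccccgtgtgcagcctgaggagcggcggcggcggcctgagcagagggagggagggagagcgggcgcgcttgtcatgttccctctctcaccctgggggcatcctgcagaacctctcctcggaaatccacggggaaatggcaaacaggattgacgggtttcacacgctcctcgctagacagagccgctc
GADD45G: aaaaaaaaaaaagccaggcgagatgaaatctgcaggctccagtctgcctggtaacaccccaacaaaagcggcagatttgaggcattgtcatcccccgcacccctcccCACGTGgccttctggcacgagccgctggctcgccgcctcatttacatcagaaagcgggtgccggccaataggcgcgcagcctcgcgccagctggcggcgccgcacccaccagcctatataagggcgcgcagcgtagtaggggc
VEZF1: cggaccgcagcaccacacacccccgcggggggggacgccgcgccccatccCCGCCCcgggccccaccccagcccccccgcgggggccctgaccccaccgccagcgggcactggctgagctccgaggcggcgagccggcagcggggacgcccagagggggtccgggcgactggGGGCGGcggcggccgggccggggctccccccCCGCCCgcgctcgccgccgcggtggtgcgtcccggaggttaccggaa
LRRC31: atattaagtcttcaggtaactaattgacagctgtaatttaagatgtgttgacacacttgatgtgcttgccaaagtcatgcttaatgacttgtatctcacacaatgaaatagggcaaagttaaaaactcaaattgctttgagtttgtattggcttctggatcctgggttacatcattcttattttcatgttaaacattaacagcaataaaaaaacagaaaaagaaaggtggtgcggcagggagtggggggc

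ACOT6 held 1 match to the hormone response element core and 1 to the AP-1 site, with a GC content of 53.2% and 2 CpG dinucleotides. DUSP1 held 4 GC boxes and 1 E-box at 74.4% GC, SERTAD4 held 2 GC boxes, and VEZF1 held 3 at 84.0% GC. FKBP5 and LRRC31 held none of the motifs, which says only that these letters are absent from these windows. The printed promoters thus range from AT-rich (LRRC31, 36.8% GC) to dense in CpG (VEZF1, 36 CpG in the window).

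Across the gene set, windows at the gene start were GC-rich. These windows span 300 bases, the 250 upstream and 50 after the start, so they are longer than the printed ones. A RefSeq window was matched for 1367 of the 2503 genes near the gained peaks and for 1244 of the 1731 with enough counts to test. The median GC content was 69.0% in those 1244, 70.0% where the 5′ end lay inside the peak, 65.0% in all 12440 tested genes with a window, and 58.3% over all 27195 genes of the table. GC boxes were present in 73.8% of the 1244 windows, against 67.4% of all tested genes' windows and 44.6% of the whole table. The hormone response element core was present in 3.05%, against 2.92% of tested genes and 5.44% of the table, and the half-site in 7.72%, against 9.22% and 14.8%. Forkhead sites stood at 2.81% against 2.32% and 3.44%, AP-1 sites at 4.58% against 4.73% and 7.69%, and E-boxes at 10.0% against 9.68% and 7.42%. Among genes with a window that were higher (379) or lower (341) after hormone in si-control, the core was present in 2.64% of each, and GC boxes in 76.0% and 72.1%. These shares are descriptions of windows of the same length, without a test. RNA level also moves with GC content: in tested genes with a mean log2 CPM of 3 or more, GC boxes were present in 72.5% of all windows and in 77.4% of those near gained peaks.

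The regions were chosen by the peak calls themselves: presence in the 30 min list, absence from the 0 min list and position. Score and width come from the same calls and are given as descriptions, with no test. The score is the authors' own value for each peak. Near promoters, gained peaks had a median score of 72.1 (quartiles 58.8 and 98.1, range 50.01 to 712.5) and a median width of 1377.5 bases (quartiles 971 and 2090, range 475 to 11422). Of the 1906, 453 (23.8%) scored 100 or more and 175 were at least 3000 bases wide. Together they covered 3182534 bases. The 3590 gained peaks farther than 5 kb from a 5′ end had a median score of 66.4 and a median width of 1028 bases. Higher scores went with wider peaks: the median width was 1043.5 bases in the 528 peaks scoring under 60, 1307 in the 925 scoring 60 to 100, and 1959 in the 453 scoring 100 or more. Pearson's r between log score and log width was 0.447 over the 1906 peaks, which come from 1 library. Both lists start at a score of 50, so a site just under that limit at 0 min counts as gained. Peak names are numbered up to 2316 in the 0 min list of 2288 peaks and up to 6205 in the 30 min list of 6180, so a few numbered peaks are not among those used here, and a site counted as gained could match one of them. With 1 library per time, a gain in binding and a deeper or better enriched 30 min library cannot be told apart.

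**Figure D1:**
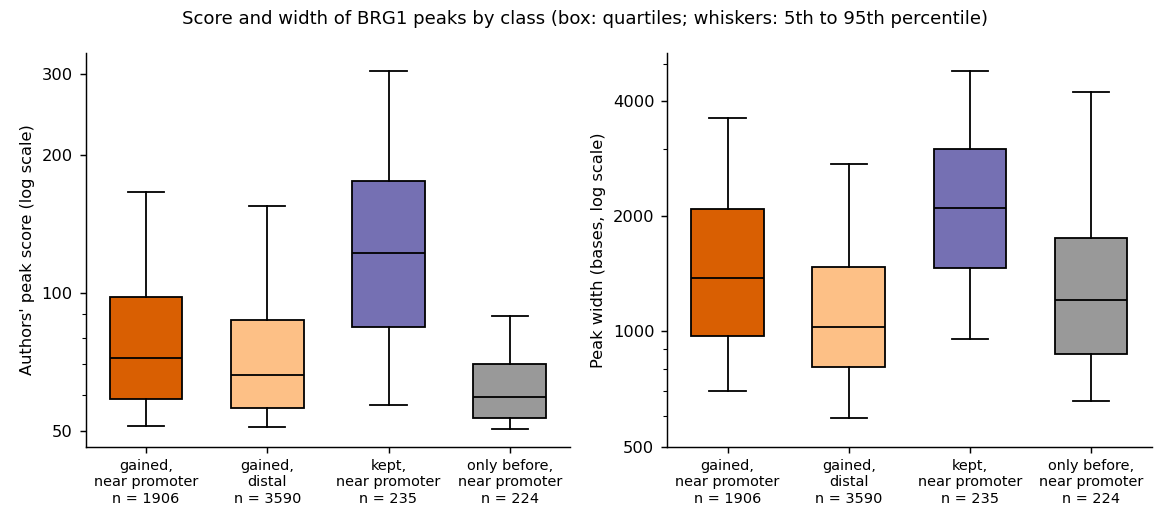
The authors' peak score (left) and peak width in bases (right), both on log axes, for 4 classes of BRG1 peak. Boxes are quartiles and whiskers the 5th to 95th percentiles. Gained peaks near promoters (median score 72.1) lie below the 235 kept peaks near promoters (122.2) and above the 224 found only before hormone (59.3).

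The 684 peaks kept from 0 to 30 min were near promoters about as often as the gained ones, 235 of 684 (34.4%, 95% Wilson interval 30.9 to 38.0). Of the 1620 peaks listed only at 0 min, 224 (13.8%, 12.2 to 15.6) were near a promoter. These intervals cover counting error only. Kept promoter peaks had a median score of 122.2 and a median width of 2105 bases, and the peaks lost by 30 min had medians of 59.3 and 1206. Chromosome 3 carried 9.9% of the gained promoter peaks and 30.9% of the 0 min list, against 5.8% of the tested genes. Chromosome 19 carried 1.0% of the gained promoter peaks and 6.9% of the tested genes.

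Midpoints of gained promoter peaks were most frequent just inside the gene 5′ end, though many peaks lay farther away. The 5′ end is the outermost annotated base, so a peak at an inner start of the same gene also counts as inside the gene. Of the 1906, 908 (47.6%) held a 5′ end, 364 had the nearest one within 1000 bases of an edge, and 634 had it farther away, up to 5000 bases. Peak midpoints lay a median of 367.5 bases into the gene (quartiles -446 and 1138.5), and 1242 (65.2%) were downstream of the 5′ end. The 500 bases just inside the gene held 406 midpoints (21.3%), the next 500 held 314 (16.5%), and the 500 upstream held 196 (10.3%). Of the kept promoter peaks, 70.2% were downstream, with a median of 358 bases, and 66.4% held a 5′ end. These differences between classes were not tested. Of the peaks found only before hormone, 52.7% were downstream and 21.9% held a 5′ end. A 5′ end was inside 43.4% of gained peaks scoring under 60, 46.7% of those scoring 60 to 100 and 54.5% of those scoring 100 or more. Wide peaks reach a 5′ end more readily, and width moved with score.

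**Figure D2:**
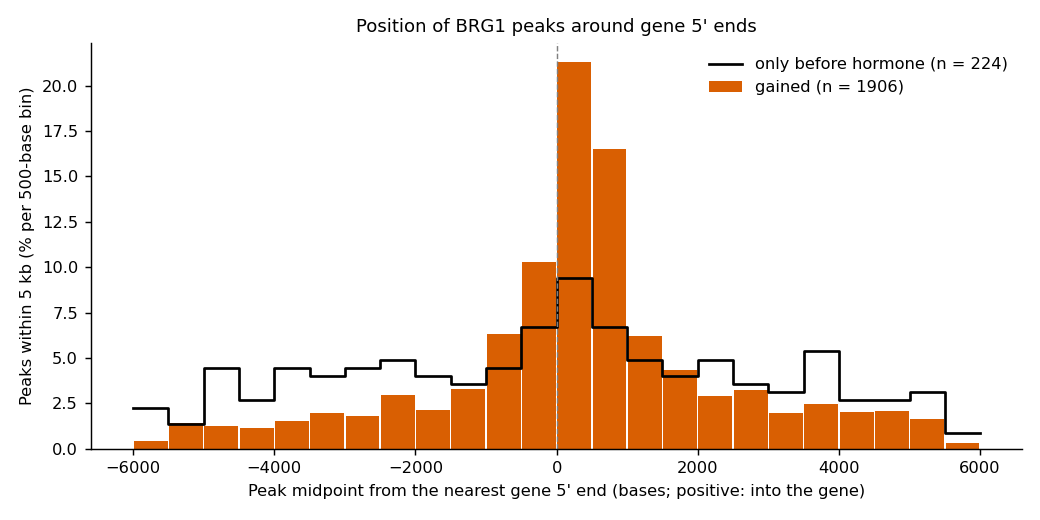
Position of peak midpoints relative to the nearest gene 5′ end, in bases, positive into the gene, as percent of peaks per 500-base bin. Filled bars are the 1906 gained peaks and the line the 224 peaks found only before hormone. The bin just inside the gene holds 21.3% of the gained peaks.

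At the limits of the rule, the outermost peaks included were 4996 bases from RNU7-54P (score 131.16, width 863 bases) and 4997 bases from USP44 (score 74.53, width 1100 bases) and from ENSG00000238824 (score 60.6, width 1986 bases). The first ones left out were 5002 bases from RNU6-145P (score 119.84), 5005 from ENSG00000269604 (113.12) and 5029 from SETD3 (53.95). The gained peaks nearest to a 0 min peak were 43 bases from it at KERA, 65 at CNOT6L and 115 at POU2F1-DT. The peaks counted as kept with the least overlap shared 4, 185 and 258 bases.

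The gained promoter peaks made 2680 pairs with 2503 genes. One gene lay within 5 kb at 1287 peaks, 2 genes at 497 and 3 or more at 122, with at most 7, and 525 peaks had genes on both strands. A gene had more than 1 gained peak in 169 cases, with at most 3. Of the 2503 genes, 1731 had enough counts for the test and 772 did not, and 453 peaks (23.8%) had no tested gene. The tested genes near gained peaks were well expressed, with a median of 5.23 on the mean log2 CPM scale against 3.41 over all 18806 tested genes.

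RNA libraries held 50017255 to 74374857 fragments each over 57820 genes. Under its own siRNA, SMARCA4 read 2.26 to 5.9 CPM against 61.7 to 76.6 in si-control, CBX3 3.07 to 6.8 against 242 to 266, and FOXA1 44.4 to 62.8 against 166 to 408. These ranges take 0 h and 6 h together. FOXA1 itself fell after hormone in si-control, so its knockdown was less deep against si-control at 6 h than at 0 h. Luminal epithelial markers were present in every library (summed 8340 to 14500 CPM over 12 genes, none under 0.1), and basal markers summed to 3.45 to 42 CPM over 5. Mesenchymal markers summed to 26.2 to 61.6 CPM over 6 (FAP and PDGFRA under 0.1), leukocyte markers to 0.525 to 1.96 over 5 (PTPRC, CD3E and CD68 under 0.1) and endothelial markers to 0.0342 to 1.07 over 3. In bulk RNA, fewer cells expressing a gene and less RNA per cell cannot be told apart. Whether the 2 libraries of a group are separate cultures is not in the labels, and p-values cover only the spread between these libraries, which may be technical. CPM values are fragment counts scaled to library size by TMM. A call is an adjusted p below 0.05 in edgeR's quasi-likelihood test with Benjamini-Hochberg adjustment over all 18806 genes. A ± after a log2 difference is its standard error, derived from that test (2 libraries per group). The test estimates the spread over all 16 siRNA libraries, not from the compared groups alone.

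After 6 h of R5020 in si-control, genes near gained peaks moved in both directions. Of the 1731, 479 were called higher (27.7%) and 439 lower (25.4%), against 19.5% and 18.1% of all tested genes. The median log2 difference was -0.012, against -0.017 over all genes. Rises of 2-fold or more were found for 161 (9.3%, all genes 5.39%) and falls for 78 (4.51%, all genes 4.17%). Since calls come more readily in well-expressed genes, the shares were also taken at a mean log2 CPM of 3 or more. There 34.1% of 1200 genes near gained peaks were higher and 30.0% lower, against 27.3% and 22.1% of all 9997. Median expression still differed within this limit, 6.11 near gained peaks against 5.53, and its part was not tested. The same sets, with the same gap, are used below for si-BRG1.

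Higher-scoring peaks lay by genes that rose somewhat more often. In si-control 24.0% of the 438 genes whose best peak scored under 60 were called higher, 28.1% of the 847 with 60 to 100, and 30.5% of the 446 with 100 or more. The shares called lower were 26.9%, 24.6% and 25.3%. By distance, 29.4% of the 979 genes with the 5′ end in the peak were higher, 26.9% of the 372 at 1 to 1000 bases and 23.9% of the 380 farther away, and 25.5%, 26.9% and 23.4% were lower. Median expression moved with both, from 4.95 to 5.47 on the log2 CPM scale across the score classes, and its part in these differences was not tested. The 116 tested genes with more than 1 gained peak were higher in 28.4% and lower in 25.9%, against 27.6% and 25.3% of the 1615 with 1. Genes near kept promoter peaks (241) were higher in 17.8% and lower in 31.5%, and genes near peaks found only before hormone (120) in 10.8% and 35.0%. None of these differences between classes was tested.

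At 306 gained peaks, 1 tested gene lay on each strand. In si-control both genes were higher at 26 of them, both lower at 26 and the 2 moved in opposite directions at 8. One gene alone was higher at 80, 1 alone lower at 90, and neither was called at 76. At most of these peaks at least 1 of the 2 genes was not called. Where both were called, the same direction (26 and 26 peaks) was more frequent than opposite directions (8). Of all 1731 tested genes near gained peaks, 27.7% were higher and 25.4% lower. Gene pairs away from gained peaks were not counted, and no test was made.

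**Figure D3:**
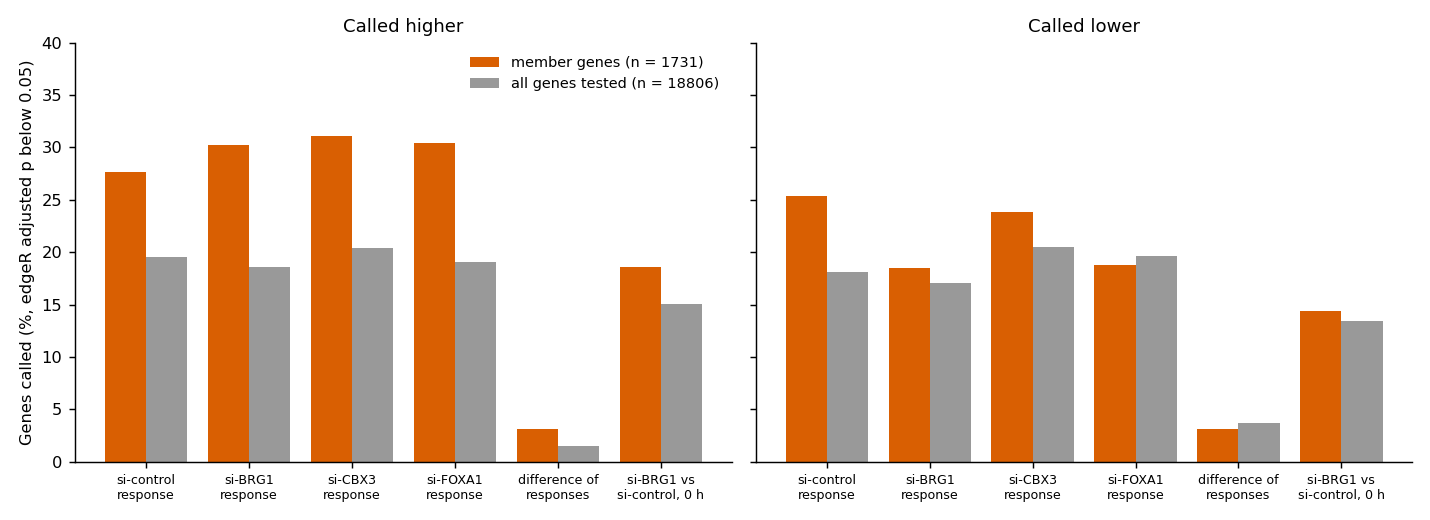
Percent of genes called higher (left) and lower (right) in 6 comparisons, for the 1731 tested genes near gained BRG1 promoter peaks and for all 18806 tested genes. In the si-control response the shares near gained peaks are 27.7% and 25.4%, against 19.5% and 18.1%.

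The largest rises near gained peaks, among called genes with a mean log2 CPM of at least 1, were in genes of several kinds, among them a receptor, a channel and a phosphatase. FKBP5, a co-chaperone of steroid receptors and a standard progestin target (chr6:35541362-35696360, hg19, minus strand), lay under a gained peak scoring 184.28 and 3281 bases wide that held its 5′ end, with 1 further gained peak within 5 kb. FKBP5 read 79.3 and 74.8 CPM at 0 h and 1140 and 1030 CPM at 6 h in si-control. Both 6 h libraries stood far above both 0 h libraries, a rise of 14.1-fold (log2 3.82 ± 0.08, edgeR adjusted p = 1.76e-15). CHRM4, a muscarinic acetylcholine receptor (chr11:46406640-46408107, minus strand; peak 4609 bases upstream, score 51.65), went from 0.282 and 0.222 CPM to 13.8 and 15.8. That was the largest rise of the genes named, 58.0-fold from a very low level (log2 5.86 ± 0.20, edgeR adjusted p = 6.17e-13). The RefSeq span of CHRM4 is 6520 bases longer than the gene model used here, and its start was not placed against the peak. KCNH1, a voltage-gated potassium channel (chr1:210856555-211307457, minus strand; 5′ end in a peak scoring 51.76), went from 2.27 and 1.37 CPM to 42.2 and 41.5, or 22.8-fold.

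DUSP1, a phosphatase that switches off MAP kinases (chr5:172195093-172198198, minus strand; 5′ end in a peak scoring 100.28), read 12.1 and 11.4 CPM at 0 h and 99.1 and 111 at 6 h. It rose 8.93-fold (log2 3.16 ± 0.09, edgeR adjusted p = 7.42e-14), and its groups did not overlap. ACOT6, an acyl-CoA thioesterase (chr14:74077649-74086592, plus strand; peak score 77.24 over the 5′ end), read 3.84 and 3.06 CPM and then 49.4 and 42.9, 13.3-fold higher. These rises had non-overlapping groups in si-control and both genes were also called higher under each of the other siRNAs. Other genes among the 12 largest rises were ATP8B3 (19.9-fold) and ATP10A (8.25-fold), both phospholipid-transporting ATPases, MTSS1 (16.9-fold), a membrane-bending actin regulator, ANKRD35 (16.2-fold), MAN1A1 (8.12-fold), a Golgi mannosidase, and MTCL1 (7.62-fold), a microtubule crosslinker.

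The largest falls near gained peaks, by the same limit, included transcription factors, a kinase and a receptor. SOX2, a factor of stem and progenitor cells (chr3:181429714-181432221, plus strand), had its gained peak (score 92.57) from 2436 bases into the gene and beyond its 3′ end. SOX2 read 9.46 and 12.8 CPM at 0 h and 1.42 and 1.14 at 6 h in si-control. It fell 8.68-fold (log2 -3.12 ± 0.18, edgeR adjusted p = 4.56e-10), with both 6 h libraries below both 0 h ones. PGR, the progesterone receptor itself (chr11:100900355-101001255, minus strand), had a gained peak scoring 127.6 that began 298 bases inside the gene. PGR read 473 and 571 CPM before hormone and 84.4 and 110 after it, a fall of 5.37-fold (log2 -2.42 ± 0.14, edgeR adjusted p = 5.89e-10).

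FOXP1, a forkhead transcription factor (chr3:71003844-71633140, minus strand; peak 632 bases from the 5′ end, score 82.36), read 35.8 and 35.4 CPM and then 6.57 and 6.77, 5.34-fold lower. PLK2, a polo-like kinase (chr5:57749809-57756087, minus strand; 5′ end in a peak of 4442 bases scoring 66.43), read 253 and 219 CPM and then 41.1 and 41.9, 5.68-fold lower. SERTAD4 (chr1:210406144-210419976, plus strand; 5′ end in a peak scoring 99.69) read 47.1 and 56.7 CPM and then 16.5 and 14.8, 3.31-fold lower. In each of these 3 genes the groups were far apart and edgeR's adjusted p was at most 8.43e-10. The other falls among the largest 12 were LMCD1 (6.45-fold), a LIM-domain co-regulator, MECOM (5.63-fold), a zinc-finger factor, SSTR2 (5.60-fold), a somatostatin receptor, LIN28A (5.59-fold), an RNA-binding protein, SPTSSB (4.11-fold) and SPTLC2 (3.44-fold), both subunits of serine palmitoyltransferase, and PREX1 (3.62-fold), a Rac exchange factor. SSTR2 shares 12.2% of its exon bases with ENSG00000264860, whose reads may be split from it.

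**Figure D4:**
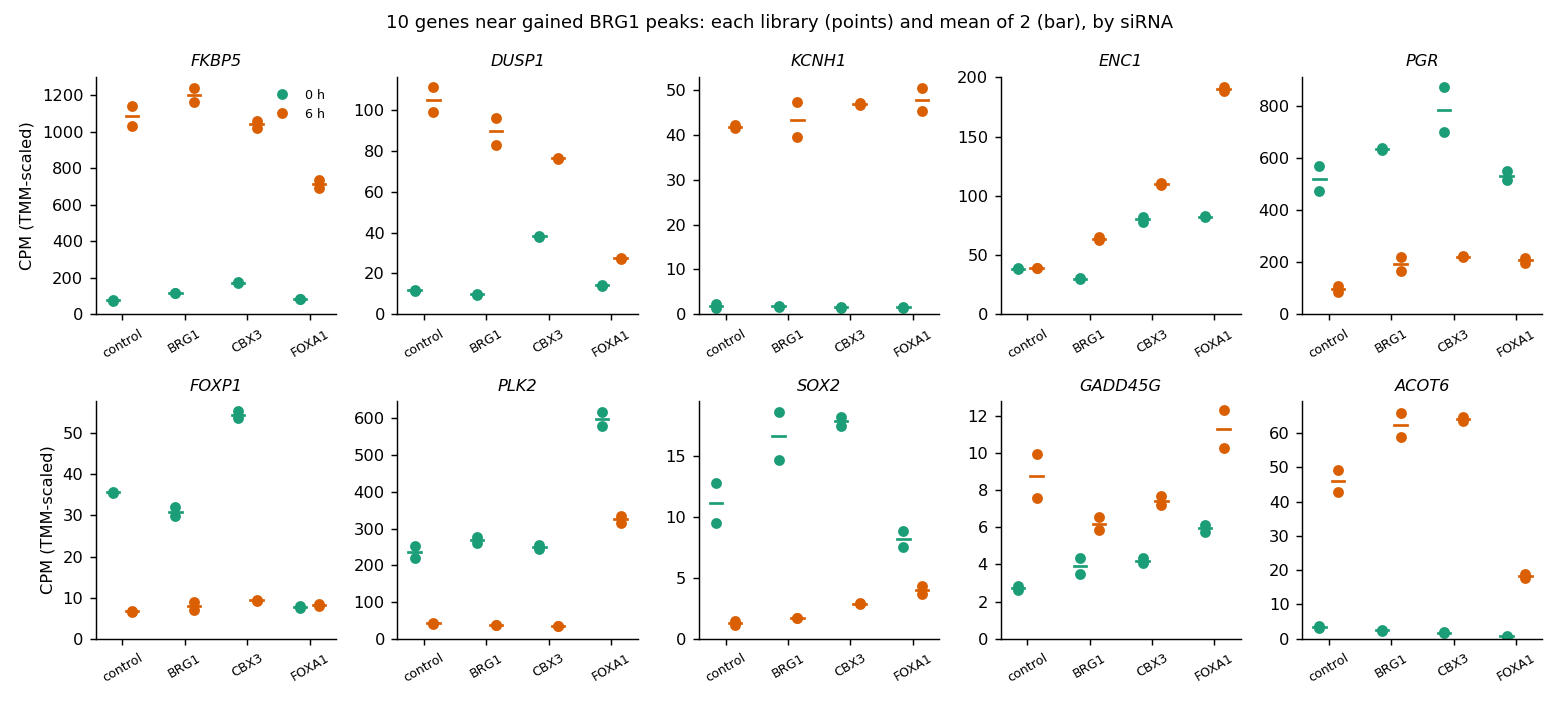
TMM-scaled CPM of 10 genes near gained BRG1 promoter peaks in each library (points) with the mean of 2 (bars), by siRNA and time. FKBP5, DUSP1 and KCNH1 are higher and PGR, PLK2 and SOX2 lower in both 6 h libraries than in both 0 h libraries under every siRNA. Under si-FOXA1, PLK2 stood at 335 and 316 CPM at 6 h. FOXP1 was 7.4 and 7.85 CPM at 0 h and 8.45 and 7.91 CPM at 6 h under si-FOXA1.

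Gained peaks touched part of the known progestin programme. Of 36 genes in a list of progestin- and glucocorticoid-induced genes, 10 had a gained promoter peak. In si-control 8 of the 10 were called higher and 2 lower (median log2 difference 1.97), and over the 35 tested genes of the whole list 26 were higher and 4 lower (median 2.12). For this and the lists that follow, 1731 of all 18806 tested genes had a gained promoter peak, and 19.5% of all tested genes were higher and 18.1% lower. Beside FKBP5 and DUSP1, the risers were CCND1, the cyclin that drives entry into S phase (100 and 98.9 to 537 and 507 CPM, 5.25-fold), KLF4 (25.5 and 24.5 to 120 and 133 CPM, 5.06-fold), EGFR, the epidermal growth factor receptor (24.4 and 22.1 to 122 and 109 CPM, 4.98-fold), NFKBIA, the inhibitor of NF-kB (3.09-fold), KLF9 (2.27-fold) and BCL2L1, an anti-apoptotic protein (1.73-fold). PRLR, the prolactin receptor, fell from 3990 and 5130 CPM to 2910 and 2530 (log2 -0.75 ± 0.11, edgeR adjusted p = 4.66e-05), and PHLDA1 was called lower by a small step (log2 -0.24 ± 0.08, edgeR adjusted p = 0.0242). PHLDA1 was not called without si-control 0 h replicate 2 or without si-control 6 h replicate 2.

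Among 15 steroid receptors and co-regulators, 6 had a gained promoter peak. In si-control 4 of these were called lower, among them PGR, FOXA1 (389 and 408 to 199 and 166 CPM, 2.18-fold) and the factor TFAP2A (69.2 and 68.7 to 46 and 38.6 CPM, 1.63-fold). The co-activator NCOA1 was called higher by 1.17-fold (84.3 and 73.4 to 97.2 and 88 CPM), and the mineralocorticoid receptor NR3C2 was not called (5.52 and 4.49 to 4.19 and 5.01 CPM). The whole list had 13 lower and 1 higher of 15, with a median of -0.68 against -0.91 for the 6. NCOA1 lost its call without si-control 0 h replicate 2 or si-control 6 h replicate 1. ESR1, the oestrogen receptor, had no gained promoter peak and fell from 211 and 221 to 92.1 and 91 CPM, 2.36-fold.

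SWI/SNF genes were themselves among the sites. Of 28 subunit genes, 7 had a gained promoter peak, and SMARCA4 did not. In si-control none of the 7 was called higher at 0.05, and 3 were lower: the alternative ATPase SMARCA2 (42.4 and 37.5 to 26.3 and 24.3 CPM, 1.58-fold), the DNA-binding subunit ARID1B (65.6 and 65.8 to 47.8 and 45.5 CPM, 1.41-fold) and BICRAL (38.6 and 37 to 30.2 and 27 CPM, 1.32-fold). BCL7A, BCL7B, SMARCD2 and BICRA were not called, with log2 differences of -0.04, 0.21, 0.09 and -0.32. Over the 25 tested genes of the list, 5 were higher and 6 lower. Of 7 linker histone genes, H1-2 (88.6 and 82 to 88 and 75.4 CPM) and H1-3 (0.0627 and 0.239 to 0.17 and 0.265 CPM) had a gained peak, and neither was called. Of 20 immediate-early genes 2 had one: KLF6 rose 1.34-fold (53.1 and 54.8 to 74 and 71.1 CPM) and DUSP6, an ERK phosphatase, fell 2.94-fold (3.06 and 3.25 to 1 and 1.14 CPM).

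Most tested genes at the 10 highest-scoring peaks were called higher in si-control, by up to 3.08-fold, against 19.5% of all tested genes. VEZF1, a zinc-finger factor (chr17:56048910-56065620, minus strand), lay under the top peak (chr17:56060485-56066988, score 712.5, 6504 bases), read 143 and 147 CPM at 0 h and 167 and 165 at 6 h, and was called higher by 1.14-fold. The call was lost without any 1 of the 4 si-control libraries. LRRC31 (chr3:169556967-169587718, minus strand; score 547.92) read 44.4 and 40.3 CPM and then 99.3 and 94.3, 2.29-fold higher (edgeR adjusted p = 1.06e-07). GRHL2, a factor of epithelial cells, shared its peak (score 509.52) with the antisense gene ENSG00000254024 and read 130 and 106 CPM and then 353 and 376, 3.08-fold higher. ENSG00000254024 was not called (2.29 and 2.02 to 1.78 and 2.46 CPM). KCTD3 (score 442.61) rose 1.95-fold, TP53BP2, a p53-binding protein (367.04), 1.66-fold, SLC38A4-AS1 (496.63; call lost without si-control 6 h replicate 1) 1.42-fold and S100A10, the annexin A2 partner (419.91), 1.28-fold, while CT62 (407.86) fell 1.91-fold from 1.6 and 1.21 CPM to 0.925 and 0.55, a call lost without si-control 0 h replicate 1 or 6 h replicate 2. LINC00862 (420.79) was not called in si-control (log2 -0.27 ± 0.39), and ENSG00000229021 was called higher at very low levels (0.22 and 0.0513 to 0.34 and 0.379 CPM), 2.58-fold. The ENSG00000229021 value was 6.68-fold without si-control 0 h replicate 1 and 1.63-fold without 0 h replicate 2, and its call was lost without 0 h replicate 2 or either 6 h library. ENSG00000257496 and RNU11-6P, at the top peaks too, had too few counts.

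With BRG1 knocked down, genes near gained peaks still responded to hormone. Under si-BRG1, 522 of the 1731 were called higher (30.2%, all genes 18.6%) and 321 lower (18.5%, all genes 17.1%). At 2-fold or more, 178 were higher (10.3%, all genes 5.51%) and 71 lower (4.1%, all genes 4.06%). In genes with a mean log2 CPM of 3 or more, 37.4% were higher and 20.1% lower, against 25.6% and 19.7% of all genes. The median log2 difference was 0.037 near gained peaks and -0.029 over all genes. By peak score, 26.0%, 30.0% and 34.5% were higher in the 3 classes of rising score.

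The si-control and si-BRG1 responses share no library and can be set side by side. Near gained peaks 412 genes were higher in both, 252 lower in both and 8 were called in opposite directions. Of the genes higher in si-control, 86.0% were also higher in si-BRG1 (all genes 67.2%), and of those lower in si-control 57.4% were also lower in si-BRG1 (all genes 57.3%). In the other direction, 78.9% of genes higher and 78.5% of genes lower in si-BRG1 were so in si-control (all genes 70.5% and 60.8%). Pearson's r between the 2 responses was 0.854 across the 1731 genes and 0.694 across all 18806. Genes are not independent replicates, and the level of expression differs between the 2 sets.

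**Figure D5:**
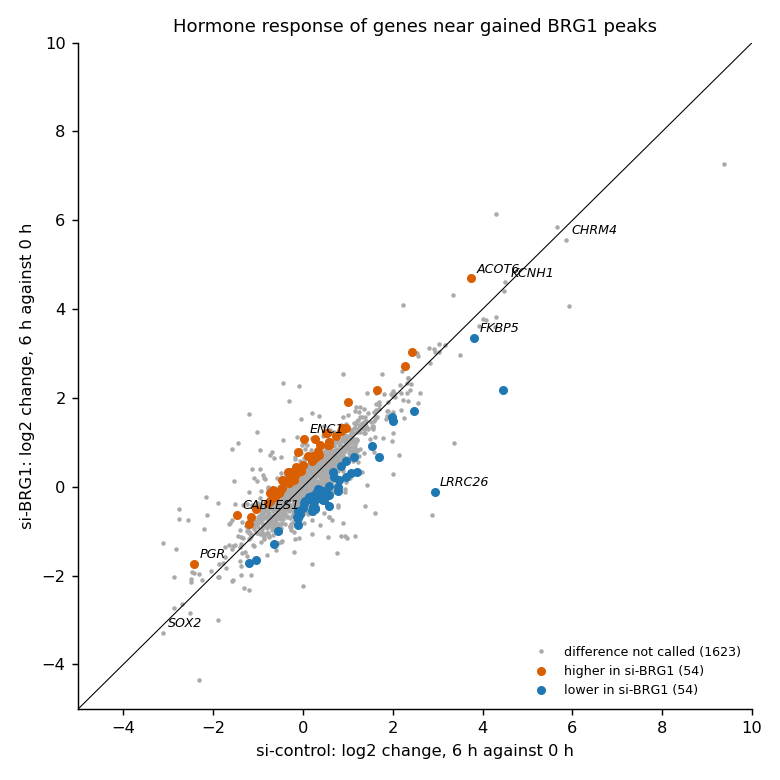
Log2 difference between 6 h and 0 h of hormone in si-control (x) and si-BRG1 (y) for the 1731 tested genes near gained BRG1 promoter peaks, with the line of equality. Coloured points are the 54 genes whose response was higher and the 54 whose response was lower in si-BRG1 by the test of the difference.

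The difference between the 2 responses was tested for every gene as an interaction. Near gained peaks 54 responses were higher in si-BRG1 (3.12%, all genes 1.49%) and 54 were lower (3.12%, all genes 3.72%). At a mean log2 CPM of 3 or more, 4.33% were higher and 3.75% lower, against 2.28% and 5.85% of all genes. A higher difference can be a larger rise or a smaller fall. These counts depended on single libraries: leaving out 1 of the 8 gave 9 (without si-BRG1 0 h replicate 1) to 206 (without si-BRG1 6 h replicate 1) higher, and 9 to 121 lower for the same libraries, and every other library except si-BRG1 6 h replicate 2 moved both counts by over 1.5 times. A fit on these 8 libraries alone called 4 in each direction.

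ENC1, an actin-binding protein (chr5:73923234-73937249, minus strand; 5′ end in a peak scoring 80.39), showed the largest higher difference. ENC1 read 37.9 and 38.8 CPM at 0 h and 39 and 39.1 at 6 h in si-control. Under si-BRG1 it read 29.8 and 30.3 and then 65.1 and 62.4. Hormone thus raised it 2.12-fold in si-BRG1 and left it uncalled in si-control (difference 1.06 ± 0.09, edgeR adjusted p = 2.5e-05), and the call held without any 1 library. THBS1, a secreted matrix glycoprotein (chr15:39873280-39891667, plus strand; peak score 114.75 over the 5′ end), read 263 and 257 CPM and then 546 and 505 in si-control, and 167 and 166 and then 621 and 622 in si-BRG1. It rose 2.02-fold and 3.73-fold from a lower start in si-BRG1 (difference 0.89 ± 0.09, edgeR adjusted p = 0.000176).

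ACOT6 rose 26.0-fold in si-BRG1 (2.42 and 2.37 to 66 and 58.9 CPM) against 13.3-fold in si-control (difference 0.96 ± 0.17, edgeR adjusted p = 0.00522). NR3C2 was uncalled in si-control and rose 1.73-fold in si-BRG1 (5.57 and 5.58 to 9.87 and 9.44 CPM; difference 0.92 ± 0.16). CABLES1, a cyclin-dependent kinase adaptor, fell 2.77-fold in si-control (88.4 and 87.6 to 31.3 and 32.1 CPM) and 1.55-fold in si-BRG1 (87.5 and 88.9 to 59.9 and 54.3 CPM; difference 0.84 ± 0.10, edgeR adjusted p = 0.000391). These 3 calls held when any 1 library was left out. PGR fell 3.31-fold in si-BRG1 (641 and 633 to 166 and 219 CPM), less than the 5.37-fold fall in si-control (difference 0.70 ± 0.19, edgeR adjusted p = 0.0466). For PGR the call was lost without si-control 0 h replicate 2, si-control 6 h replicate 1, either si-BRG1 0 h library or si-BRG1 6 h replicate 2.

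In the other direction, GADD45G, a stress-response growth regulator (chr9:92219928-92221470, plus strand; 5′ end in a peak of 3181 bases scoring 112.06), rose 3.23-fold in si-control and 1.58-fold in si-BRG1. It read 2.62 and 2.82 CPM and then 7.59 and 9.95 in si-control, and 4.33 and 3.51 and then 6.55 and 5.84 in si-BRG1 (difference -1.03 ± 0.21, edgeR adjusted p = 0.0112). Both 6 h levels were lower and both 0 h levels higher in si-BRG1. LRRC26 had the largest lower difference (-3.04 ± 0.66, edgeR adjusted p = 0.0163), but its 6 h si-control libraries read 5.78 and 21.1 CPM, and without the second of them the difference was -1.80 (edgeR adjusted p = 0.0786). LRRC26 also shares 27.5% of its exon bases with ENSG00000261793.

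NOXA1, an NADPH oxidase activator, was called higher in si-control (4.16 and 3.55 to 5.36 and 6.07 CPM) and lower in si-BRG1 (4.28 and 4.4 to 3.51 and 2.97 CPM), a difference of -0.99 ± 0.20. The NOXA1 call in si-BRG1 was lost without either 0 h library or 6 h replicate 2, and that in si-control without 6 h replicate 2. SYT8, a synaptotagmin, and ZNF503, a zinc-finger factor, were called higher in si-control (both 1.73-fold) and uncalled in si-BRG1 (log2 -0.10 and 0.00), with differences of -0.89 ± 0.21 and -0.78 ± 0.16. C1orf116 rose 2.31-fold in si-control and 1.25-fold in si-BRG1 (difference -0.88 ± 0.15). The call of the difference held without any 1 library, and the call of the C1orf116 rise in si-BRG1 was lost without any 1 of its 4 libraries. FKBP5 rose 10.3-fold in si-BRG1 against 14.1-fold in si-control (difference -0.45 ± 0.10, edgeR adjusted p = 0.0147), from 116 and 117 CPM before hormone against 79.3 and 74.8, and reached 1160 and 1240 CPM. The FKBP5 call was lost without si-control 0 h replicate 2, si-control 6 h replicate 1 or either si-BRG1 0 h library. Calls for GADD45G, NOXA1, SYT8 and ZNF503 were also lost in at least 1 such omission.

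Before hormone, si-BRG1 against si-control gave 322 genes near gained peaks higher (18.6%, all genes 15.1%) and 249 lower (14.4%, all genes 13.4%). Those peaks were absent from the 0 min list. At a mean log2 CPM of 3 or more, 22.8% of genes near gained peaks were higher and 18.8% lower, against 20.0% and 19.8% of all genes. Without that limit, the balance over all genes turned with DESeq2 size factors (2490 higher and 3065 lower) and with DESeq2 (2440 and 3059). It also turned without si-control 0 h replicate 1. Near gained peaks the balance turned in the same settings, to 284 higher and 302 lower with DESeq2 size factors and 286 and 312 with DESeq2. Without si-BRG1 0 h replicate 2 the higher count was 213, and without si-BRG1 0 h replicate 1 the lower count was 139. Among called genes with a mean log2 CPM of at least 1, LIN28A showed the largest rise, from 10.3 and 7.55 CPM in si-control to 34.4 and 36.7 in si-BRG1 (3.97-fold, edgeR adjusted p = 9.95e-07), and ZNF664 went from 114 and 103 to 381 and 392 CPM (3.55-fold). SETBP1, CCDC159, PHACTR2 and TCF7L1 were higher by 2.61-fold to 2.66-fold. On the lower side, GASK1B read 142 and 191 CPM in si-control and 65.4 and 71.8 in si-BRG1 (2.43-fold), SYP, synaptophysin, 15.8 and 15.5 against 8.15 and 7.91 CPM (1.95-fold), and SMPD3, a sphingomyelinase, 2.32 and 2.24 against 1.31 and 0.882 CPM (2.07-fold). PLSCR1, an interferon-inducible scramblase, read 33.5 and 34.2 CPM in si-BRG1 against 125 and 70.2 in si-control, where the first library stood apart. ENSG00000241720, which shares 22.4% of its exon bases with GSTM5, was 3.74-fold lower and ENSG00000258414 2.55-fold lower.

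Under si-CBX3, 538 genes near gained peaks were higher (31.1%, all genes 20.4%) and 412 lower (23.8%, all genes 20.5%) after hormone. Under si-FOXA1, 526 were higher (30.4%, all genes 19.1%) and 326 lower (18.8%, all genes 19.6%). The share called higher near gained peaks was thus above that of all genes under all 4 siRNAs. The share called lower was above it in si-control and si-CBX3, and by a smaller margin in si-BRG1 (18.5% against 17.1%). Under si-FOXA1 the lower share was close to that of all genes, and their order turned without si-FOXA1 0 h replicate 1 (264 of 1761 genes against 13.7%), 0 h replicate 2 (14.0% against 12.5%) or 6 h replicate 1 (14.9% against 12.7%), with DESeq2 (13.5% against 9.32%) and without a count filter (333 of 2217 genes against 10.4%). With DESeq2 and without a count filter, shares were taken over every gene with any count, including genes with too few counts for the main test. What that did to the order was not tested. In the main fit at a mean log2 CPM of 3 or more, the si-FOXA1 lower share was 19.1% near gained peaks against 24.8% of all genes. For si-CBX3 the lower shares at that limit were 24.9% and 22.1%. Differences of these responses from si-control were not tested here.

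Single genes showed other patterns under these siRNAs. Under si-CBX3, DUSP6 fell 16.3-fold from 16.6 and 17.4 CPM to 1.09 and 1 (log2 -4.02 ± 0.15, edgeR adjusted p = 1.95e-12), and KLF6 fell 2.15-fold from 172 and 167 to 79 and 79.5 CPM, while it rose in si-control, si-BRG1 and si-FOXA1. DUSP1 rose 2.00-fold under si-CBX3 (37.9 and 38.4 to 76.6 and 76 CPM). Under si-FOXA1, FOXP1 was not called (7.4 and 7.85 to 8.45 and 7.91 CPM), and its level before hormone was near the level it reached after hormone in si-control. SSTR2 rose under si-FOXA1, from 31.8 and 29.5 to 60 and 61.8 CPM, and GASK1B rose 5.26-fold from 5.95 and 5.34 to 31.3 and 28.1 CPM, while both fell in si-control. LRRC31 rose 12.1-fold under si-FOXA1 from 0.924 and 1.49 to 15.6 and 13.5 CPM. RHOH, a haematopoietic GTPase, fell 8.47-fold there (3.03 and 2.97 to 0.339 and 0.366 CPM), RAB20 4.50-fold (44 and 48.2 to 10 and 10.5 CPM), the bombesin receptor GRPR 5.44-fold and KIF23-AS1 4.56-fold.

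Cells with no siRNA gave a separate, unreplicated view as RPKM, reads scaled to transcript length and library size, with 1 library per time and hence no test. Of 2265 genes near gained peaks with a value, 220 (9.71%) were at least 2-fold higher at 6 h and 54 (2.38%) at least 2-fold lower on the log2(RPKM + 1) scale, against 2.42% and 0.853% of all 49110 genes with a value. That scale understates changes in low genes. In tested genes the shares were 12.6% and 3.0% of 1699 near gained peaks, against 5.94% and 1.95% of 18455. Of the 161 genes that rose at least 2-fold in si-control, 156 were higher and 96 at least 2-fold higher without siRNA. Of 77 with such a fall and a value, 66 were lower and 20 at least 2-fold lower. FKBP5 went from 3.32 to 34.6 RPKM, ACOT6 from 0.471 to 17.2, LMCD1 from 58.8 to 6.71, FOXP1 from 19.4 to 3.98 and PGR from 14.4 to 7.47. A few went the other way from si-control: PRLR read 198 and then 282 RPKM, and CABLES1 3.54 and then 6.77.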

How the data were processed

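Fragment counts per gene were deposited by the authors without normalization. featureCounts v1.4.6-p2 counted paired, reverse-stranded reads on hg19 gene models, per the file headers. The submitters' processing notes list Trimmomatic and STAR for RNA. Without siRNA, the authors deposited estimated counts (not used) and RPKM values per transcript, summed here per gene and matched by Ensembl identifier without version (49110 of 57820 genes), with a pseudocount of 1. Peak lists were deposited with a score per peak. Peak names begin with MACS, and the submitters' processing notes list Bowtie 1.0.0 and HOMER for ChIP. Caller settings and ChIP depth: not given in the sources used here.

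Peaks were compared at 1 shared base, in 1-based hg19 coordinates. A 5′ end was the outermost annotated base of a gene. Counts were fitted in R 4.3.3 with edgeR 4.0.16 (filterByExpr, TMM scaling, 1 mean for each of 8 groups, two-sided quasi-likelihood tests, 8 residual degrees of freedom), after a check on simulated counts. DESeq2 1.42.0 was an alternative. Tables and figures used Python 3.11.15. Reference sequences came from RefSeq.

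The peak rule and all gene lists were chosen with earlier results of these data known. Genes named were those at the 10 highest scores, the list members with a gained peak, SMARCA4, PGR, ESR1 and FKBP5, and, among called genes with non-overlapping groups and a mean log2 CPM of at least 1, the 12 largest rises and falls in si-control, the 6 in each direction of the si-BRG1 difference and of si-BRG1 before hormone, and the 4 in each direction of the si-CBX3 and si-FOXA1 responses. Some genes that meet this rule are not reported here. Alternatives were another scaling, DESeq2, no count filter, only the groups compared, a replicate block, each library left out, 1 kb for 5 kb, a higher score limit and a pseudocount of 0.1.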

Additional observations from a re-analysis of the deposited data

Results flagged for a closer look

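The hormone response of 14 genes near gained BRG1 promoter peaks differed between si-BRG1 and si-control by the interaction test in edgeR (adjusted p below 0.05). All but FKBP5 and PGR, which other parts of the naming rule brought in, were picked for large differences, so the list is not a sample of the 1731 genes. The response was higher under si-BRG1, by these log2 differences, for ENC1 (1.06), ACOT6 (0.96), NR3C2 (0.92), THBS1 (0.89), CABLES1 (0.84), ENSG00000257883 (0.79) and PGR (0.70). ENSG00000257883, a gene of unnamed function, went from 1.83 and 1.78 to 2.02 and 2.37 CPM in si-control and from 1.64 and 1.52 to 3.11 and 3.54 CPM in si-BRG1. Its call was lost when any 1 of the 8 libraries except si-BRG1 6 h replicate 1 was left out (edgeR adjusted p = 0.0779 to 0.151). The response was lower for LRRC26 (-3.04), GADD45G (-1.03), NOXA1 (-0.99), SYT8 (-0.89), C1orf116 (-0.88), ZNF503 (-0.78) and FKBP5 (-0.45). For 11 of the 14 the call was lost when the fit held only the 4 groups of the comparison, and ENC1, THBS1 and CABLES1 kept it.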

How the results depend on the processing

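No called value of a named gene changed sign under the alternatives run, but some comparisons of counts turned. Before hormone, si-BRG1 gave 284 higher and 302 lower with DESeq2 size factors (all genes 2490 and 3065). It gave 286 and 312 with DESeq2 (all genes 2440 and 3059), and the balance also turned without si-control 0 h replicate 1. The balance over all genes turned in the same settings. The si-FOXA1 lower share rose above that of all genes without si-FOXA1 0 h replicate 1, 0 h replicate 2 or 6 h replicate 1, with DESeq2 and without a count filter. The share of lower differences did so with DESeq2 (3.61% against 2.85%), without a count filter (2.89% against 2.52%) and without si-control 6 h replicate 2. With DESeq2 and without a count filter, shares include genes with too few counts for the main test, and their part was not tested. In the main fit at a mean log2 CPM of 3 or more, the si-FOXA1 lower share was 19.1% against 24.8% of all genes. The share of lower differences there was 3.75% against 5.85%. Restricted to gained peaks scoring at least the median of the 30 min list (1016 of 2603 such gained peaks, 39.0%), fewer genes entered (981 tested). The counts higher and lower were 287 (29.3%, all genes 19.5%) and 249 (25.4%, all genes 18.1%) in si-control. They were 317 (32.3%, all genes 18.6%) and 187 (19.1%, all genes 17.1%) in si-BRG1. In si-CBX3 they were 331 (33.7%, all genes 20.4%) and 234 (23.9%, all genes 20.5%). In si-FOXA1 they were 317 (32.3%, all genes 19.1%) and 173 (17.6%, all genes 19.6%). Before hormone, si-BRG1 gave 180 (18.3%, all genes 15.1%) and 138 (14.1%, all genes 13.4%). Lower differences between si-BRG1 and si-control numbered 34 (3.47%, all genes 3.72%). Without siRNA, 144 were higher (11.5%, all genes 2.42%) and 25 lower (2.0%, all genes 0.853%). Without siRNA, a pseudocount of 0.1 gave 113 genes lower (4.99%, all genes 2.69%). In a fit on only the groups compared, 211 genes were lower in si-BRG1 (13.0%, all genes 11.2%), and 4 differences between si-BRG1 and si-control were higher and 4 lower; the cause was not tested. Higher differences numbered 110 with DESeq2 (4.96%, all genes 1.45%) and 111 without a count filter (5.01%, all genes 1.51%), where more genes were tested. Leaving out 1 library at a time gave 408 to 436 higher and 304 to 414 lower in si-control, 451 to 548 and 240 to 366 in si-BRG1, 446 to 486 and 286 to 342 in si-CBX3, 404 to 497 and 246 to 281 in si-FOXA1, 9 to 206 and 9 to 121 for the difference, and 213 to 252 and 139 to 266 before hormone. The counts over all genes changed under these omissions too. Where leaving out a library leaves 1 library in a group, that library is assumed to vary like the others. Replicate numbers did not pair the samples: deviations of same-numbered libraries correlated at -0.0587 to 0.117. With the replicate block, 472 genes were higher and 425 lower in si-control and 515 and 312 in si-BRG1. Among the values of single genes, the block ended 7 calls, that of the PGR difference among them, DESeq2 ended 12 and made 6, and the fit on only the groups compared ended 23 and made 13. Precision rests on 2 libraries per group and on 1 ChIP library per time.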
